A study of Mus musculus with 18 samples.

Results

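Collagen chains in whole mouse islets were followed at the RNA level in 4 groups set by sex and MafA genotype. The members were the genes whose symbol is Col, a number, the letter a and a number with nothing after it. They came to 44 of the 53801 mouse genes listed. MafA is a transcription factor of beta cells that activates the insulin genes, and the mice carried either the wild-type gene (WT) or the MafA-S64F variant on 1 allele (MafA-S64F heterozygous, here S64F/+). All groups were islets of mice 5 weeks old on normal chow: the males gave 4 WT and 4 S64F/+ libraries, the females 5 of each. The labels do not say that replicates came from separate mice, so p-values measure the spread between these libraries, which may be technical. The labels name no sorting, so the RNA comes from every cell of the preparation. A chain can then be higher because more cells of a type are present or because each cell holds more RNA, and these cannot be told apart here.

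Collagens are built from alpha chains that wind into trimers, and most types need chains from more than 1 gene. Fibrillar collagens (types I, III and V above all) form the rope-like fibrils of connective tissue and are made mainly by fibroblasts and stellate cells. Collagen IV forms the sheet of basement membranes, which in the islet lie around capillaries and are laid down largely by endothelial cells. Collagen VI forms beaded filaments next to basement membranes. Its common trimer holds the products of Col6a1, Col6a2 and Col6a3, and Col6a4, Col6a5 and Col6a6 encode chains related to that of Col6a3 that can take its place.

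The libraries held between 19317971 and 108659014 counts. Mafa itself stood at 905 ± 80.8 CPM (a gene's count relative to the total of its library, here scaled for library composition, mean ± SD, n = 4) in male WT and 197 ± 52.3 (n = 4) in male S64F/+. In females it stood at 639 ± 117 in WT and 160 ± 49.8 in S64F/+ (n = 5 each). The gene counts do not show the variant itself. Transcripts of 8 endocrine marker genes, the insulin genes among them, were summed in each of the 18 libraries. They came to 260196 to 347242 CPM in male WT and 177885 to 207508 in male S64F/+. The female sums were 216575 to 362389 CPM in WT and 211153 to 349079 in S64F/+. Every male S64F/+ library thus lay below every other library in endocrine marker RNA. A pair of libraries stood apart. Male WT replicate 1 and female S64F/+ replicate 5 had the least RNA of 14 fibroblast and stellate cell markers within their groups, at 134 and 156 summed CPM, and were lowest in their groups for Col1a1, Col3a1, Col5a1 and every collagen IV chain. Female WT replicate 5 was also low, with fibrillar chains summing to 215 CPM beside 279 in female S64F/+ replicate 5, and was kept. Results were therefore also computed without the pair. Dropping the pair raises the male WT and female S64F/+ means of chains low in them. That alone lowers the male minus female difference of such chains.

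Counts were high enough to test 40 of the 44 collagen genes. Col2a1, Col9a1, Col19a1 and Col22a1 did not pass, with 24 to 98 counts each over all 18 libraries. Col24a1 passed through the male S64F/+ group, where it is high, so its call there is no support, and counts are also given without it. The 8 classes were 11 fibrillar chains, 6 of collagen IV, 6 of collagen VI, 9 fibril-associated chains, 2 multiplexins, 3 short network-forming chains, 4 transmembrane chains and 3 others.

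In males, 28 of the 40 tested chains rose in S64F/+ islets and 2 fell (edgeR quasi-likelihood test, Benjamini-Hochberg adjusted p under 0.05 over 18364 genes). Among all genes tested, 15.4% rose and 12.3% fell in that comparison. Leaving out Col24a1, 27 of 39 rose. The median change of the 40 chains was 1.57 on the log2 scale, beside -0.03 for all genes tested. With no filter, when all 44 were tested, 27 rose and 2 fell, with a median of 1.37. Without the 2 libraries that stood apart, 27 rose and 1 fell. Leaving out male WT replicate 2 or 3 or male S64F/+ replicate 3 or 4 also left 1 that fell.

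In females, 6 chains rose and 2 fell, with backgrounds of 10.2% and 11% of all genes, and a median change of 0.36 beside 0.02 for all genes. Same-numbered female libraries shared some of their deviations, which is only a hint of pairs. With the number as a block 7 rose and 1 fell. Without the 2 libraries that stood apart, 4 rose and 2 fell, with Col6a3 and Col9a3 no longer called. Fits without 1 library called 3 to 6 higher, with 3 when female WT replicate 3, 4 or 5 or female S64F/+ replicate 4 was left out, and 1 to 3 lower, with 1 on leaving out female WT replicate 1 or 3 or female S64F/+ replicate 2 or 4. With scaling by plain library size, 3 rose and 2 fell in females. That scaling placed the median of all genes at 0.19 in males, where 4248 of all genes then rose and 666 fell, against 2819 and 2252 in the scaling used throughout. Its male changes are to be read against that shift.

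The genotype effect itself was larger in males than in females for 12 chains, or 11 leaving out Col24a1, and smaller for 0 (interaction term, adjusted p under 0.05, edgeR). In the same test, 2.87% of all genes had a larger and 1.6% a smaller effect in males. At an unadjusted p under 0.05 there were 23 chains in all. Leaving out both libraries that stood apart, which acts toward a smaller difference for chains low in them, left 6 of the 12. The 6 left were Col4a1, Col4a2, Col4a4, Col4a5, Col6a5 and Col15a1. Fits without 1 library called 7 to 15, and 7 without male WT replicate 1 or 4, male S64F/+ replicate 1 or female WT replicate 2 or 3. DESeq2 called 18 higher and 0 lower.

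Chains called higher in both sexes numbered 6, beside 4.23% of all genes. They were Col6a3, Col6a5, Col9a2, Col9a3, Col25a1 and Col27a1. Col6a6 was called lower in both sexes, as were 5.78% of all genes, and Col11a2 was called lower in females and not in males, with no difference called between the sexes (0.12 ± 0.22 on the log2 scale, adjusted p = 0.77, edgeR interaction).

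**Figure D1:**
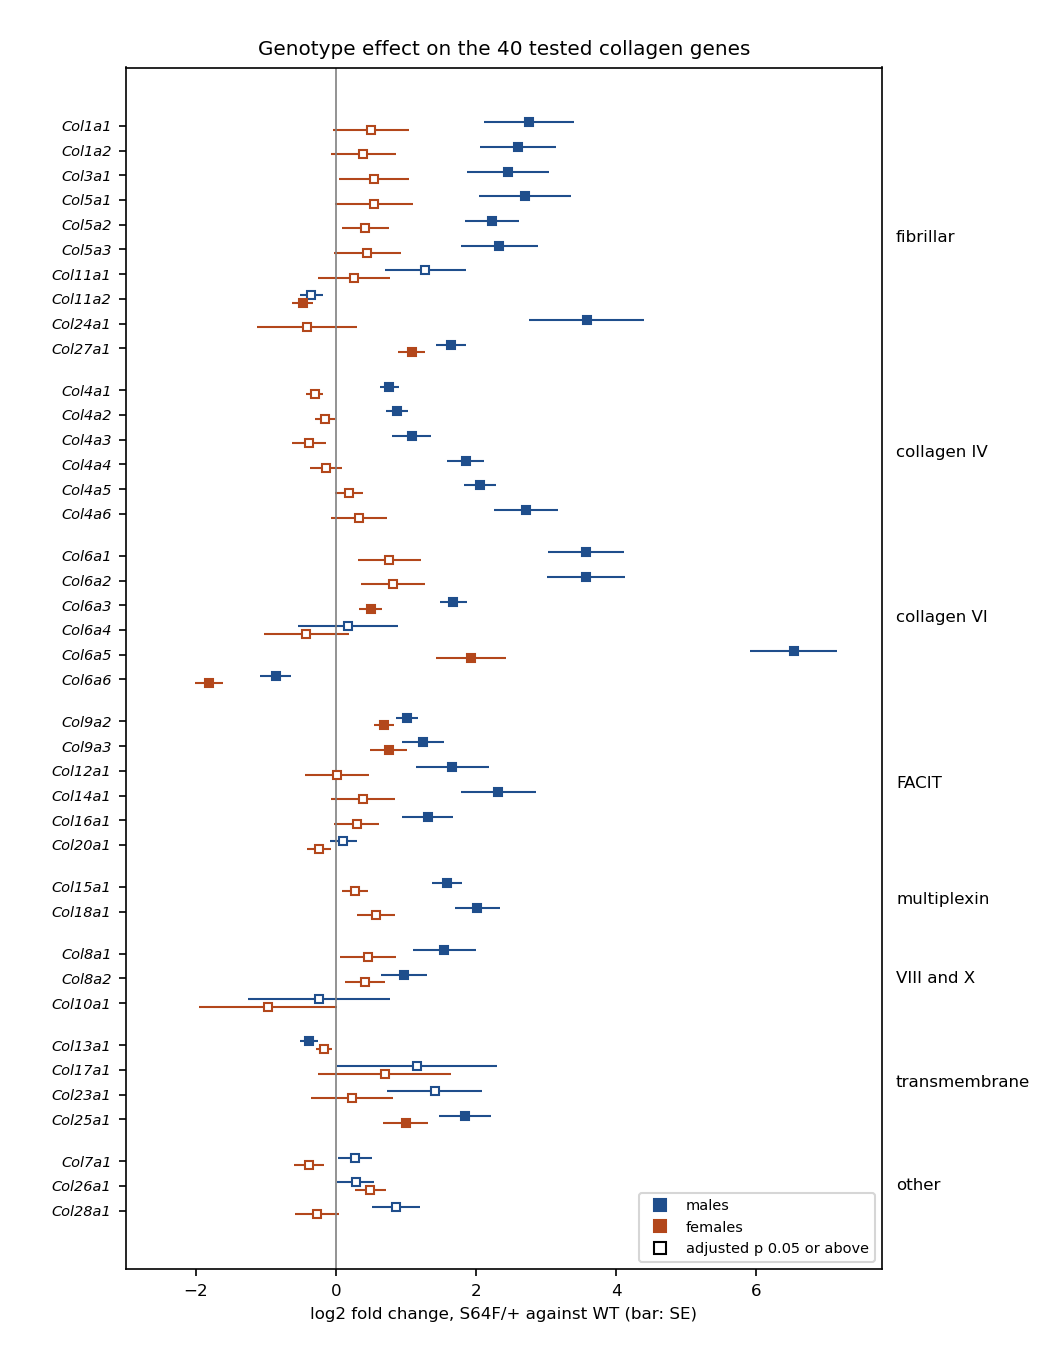
Log2 fold change of S64F/+ against WT (horizontal axis, bars are 1 SE) for the 40 tested collagen genes by class, males in blue (4 libraries a group) and females in orange (5 a group); filled squares passed an adjusted p of 0.05 in the edgeR test. All 6 collagen IV chains are filled in males and open in females, and Col6a5 lies farthest to the right at 6.54 in males.

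Collagen VI held both the largest rise and the largest fall of the family, and both were in genes of a single cluster on chromosome 9. Col6a5 RNA was near 1 CPM in WT islets of both sexes and was 92.9-fold higher in male S64F/+ islets. Col6a6, its neighbour, was the only collagen VI chain that fell. The trimer partners Col6a1 and Col6a2 rose 11.9-fold each in males, and Col6a3 rose 3.19-fold. In males, 4 of the 6 chains rose and 1 fell. In females, 2 rose and 1 fell, or 3 and 1 with the replicate block.

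Col6a5 lies at chr9:105856078-105960643 on the minus strand (GRCm38, GENCODE M21). Its WT level in males was 0.498, 1.37, 1.16 and 0.912 CPM in replicates 1 to 4. In male S64F/+ it was 32.8, 73.6, 152 and 128 CPM. Every S64F/+ library of the males therefore lay far above every WT library, and the S64F/+ libraries differed among themselves by several fold.

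Female WT islets gave 0.891, 1.05, 1.19, 1.54 and 0.236 CPM of Col6a5. Female S64F/+ islets gave 4.02, 6.22, 4.03, 3.29 and 1.39 CPM. The female groups overlapped through S64F/+ replicate 5. The change was 6.54 ± 0.62 (log2, SE, adjusted p = 3.13e-06, edgeR) in males and 1.93 ± 0.50 (adjusted p = 0.0124) in females. The male effect exceeded the female effect by 4.61 ± 0.76 (adjusted p = 0.00926, edgeR interaction). In reads, the male WT group held 125 counts of Col6a5 in all and the male S64F/+ group 17389.

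Col6a6 lies at chr9:105687809-105828160 on the same strand, 27.9 kb from Col6a5. In males it stood at 98.3, 116, 113 and 98.1 CPM in WT and at 74.8, 51.9, 57.0 and 50.3 CPM in S64F/+. In females it stood at 204, 195, 180, 118 and 160 CPM in WT and at 79.3, 46.6, 41.3, 41.9 and 34.1 CPM in S64F/+. The genotypes did not overlap in either sex. Ranges lay apart in this direction for 17.3% of all genes in males and 6.36% in females.

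The change of Col6a6 was -0.86 ± 0.22 (log2, SE, adjusted p = 0.0073, edgeR) in males and -1.81 ± 0.20 (adjusted p = 7.34e-06) in females. With plain library-size scaling the male value was -0.64 (adjusted p = 0.0821). The difference between the sexes was 0.95 ± 0.29 (adjusted p = 0.0668, edgeR interaction, 0.0322 with the replicate block, and 0.0147 by DESeq2).

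Col6a4, the third gene of the cluster, lies 28.8 kb beyond Col6a5. It passed no test, with changes of 0.17 ± 0.71 in males and -0.42 ± 0.60 in females (log2, SE), of which the male one turned negative without male WT replicate 1 or 3 or male S64F/+ replicate 1, at group means of 0.351 to 0.809 CPM. The 3 clustered genes thus gave a rise, a fall and a change too small to resolve at this depth.

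Promoter sequence was available for 35 of the 44 chains (RefSeq starts, GRCm38.p6). Maf factors bind Maf recognition elements, palindromes whose arm is TGCTGAC. That arm, on either strand, occurs in the 250 bases before the start of 3.72% of 27025 gene starts and in 1 of the 35 collagen windows, that of Col6a5, from -15 to -9 counted from the start. The shorter GCTGAC, which every TGCTGAC contains, occurs in 12.6% of windows and in 3 of the 35, those of Col6a2, Col6a5 and Col17a1. In Col6a5 it stands also from -49 to -44 and from -43 to -38. These are letter matches, not measured binding.

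The windows of the clustered pair that moved in opposite directions, of Col6a3 and Col3a1 as the marker chains of collagen VI and of the fibrils, and the stretch shared by Col4a4 and Col4a3 are shown here, 5′ to 3′. Capitals mark GCTGAC or TGCTGAC and their complements; all are read on the strand of the gene, or of Col4a4 for the shared stretch.
Col6a5 (chr9:105960644-105960893): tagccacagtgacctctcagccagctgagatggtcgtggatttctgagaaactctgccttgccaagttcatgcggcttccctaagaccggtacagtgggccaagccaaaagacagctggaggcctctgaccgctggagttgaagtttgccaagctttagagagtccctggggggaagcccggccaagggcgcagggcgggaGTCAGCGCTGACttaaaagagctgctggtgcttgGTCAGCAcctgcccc
Col6a6 (chr9:105828161-105828335): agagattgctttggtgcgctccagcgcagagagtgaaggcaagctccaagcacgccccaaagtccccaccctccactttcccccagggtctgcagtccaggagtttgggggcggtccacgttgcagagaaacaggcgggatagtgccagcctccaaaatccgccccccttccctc
Col6a3 (chr1:90843972-90844221): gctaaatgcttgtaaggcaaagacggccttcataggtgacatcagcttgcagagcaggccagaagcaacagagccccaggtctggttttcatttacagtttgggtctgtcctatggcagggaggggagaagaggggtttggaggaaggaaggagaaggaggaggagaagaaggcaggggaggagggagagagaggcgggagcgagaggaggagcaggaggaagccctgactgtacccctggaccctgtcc
Col3a1 (chr1:45311288-45311537): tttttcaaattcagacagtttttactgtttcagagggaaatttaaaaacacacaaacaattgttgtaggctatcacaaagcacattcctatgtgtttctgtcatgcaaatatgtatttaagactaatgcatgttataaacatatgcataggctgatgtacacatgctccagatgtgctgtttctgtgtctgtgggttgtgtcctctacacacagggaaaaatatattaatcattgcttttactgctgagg
Col4a4 and Col4a3, between (chr1:82586850-82586920): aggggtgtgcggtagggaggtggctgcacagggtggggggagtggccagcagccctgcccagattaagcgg

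Only the 175 bases of the Col6a6 window that lie outside the gene in GENCODE M21 are printed, and 75 were left out. TATAAA, the TATA box core, occurs in 13% of all windows and in 5 of the 35, among them Col3a1 from -117 to -112. CCAAT, the CCAAT box, occurs in 34.5% of all windows and in 12 of the 35, so the collagen share of each box was close to that of all genes.

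Col6a1 and Col6a2, the constant chains of the collagen VI trimer, moved together. In males Col6a1 stood at 10.2, 25.0, 24.7 and 19.1 CPM in WT and at 218, 193, 290 and 248 CPM in S64F/+. Col6a2 stood at 9.51, 25.6, 28.5 and 22.5 CPM in male WT and at 236, 218, 308 and 267 CPM in male S64F/+. Replicate 1 was the lowest WT library for both, and the genotypes lay apart.

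In females Col6a1 stood at 19.3, 44.1, 43.4, 14.3 and 11.9 CPM in WT and at 39.4, 65.8, 69.3, 39.1 and 12.8 CPM in S64F/+. Col6a2 stood at 17.6, 44.2, 46.7, 16.8 and 11.4 CPM in female WT and at 41.9, 73.2, 70.04, 40.4 and 14.3 CPM in female S64F/+. Both overlapped between genotypes, and S64F/+ replicate 5 was at the WT level.

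The change of Col6a1 was 3.57 ± 0.55 (log2, SE, adjusted p = 0.000221, edgeR) in males and 0.76 ± 0.45 (adjusted p = 0.249) in females. With the replicate block the female value was 0.77 (adjusted p = 0.0293). The effects differed by 2.81 ± 0.68 (adjusted p = 0.0362, edgeR interaction). For Col6a2 the male change was 3.57 ± 0.56 (adjusted p = 0.00026, edgeR). Its female change was 0.81 ± 0.46 (adjusted p = 0.23, and 0.0177 with the block, edgeR), and the difference was 2.76 ± 0.69 (adjusted p = 0.0406). Without the 2 libraries that stood apart, the differences of Col6a1 and Col6a2 were 2.36 (adjusted p = 0.0591) and 2.29 (adjusted p = 0.0645). Both interaction calls ended in 10 of 18 leave-one-out fits, and with no filter on low counts (adjusted p = 0.059 and 0.0673).

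Col6a3, which completes the common trimer, changed less. It stood at 22.9, 34.4, 24.9 and 27.1 CPM in male WT and at 91.7, 63.3, 92.3 and 102 CPM in male S64F/+. In female islets it stood at 21.1, 44.5, 35.7, 30.4 and 32.9 CPM in WT and at 43.3, 47.6, 42.9, 55.9 and 41.9 CPM in S64F/+. The male genotypes lay apart, and the female genotypes overlapped through WT replicate 2.

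The change of Col6a3 was 1.67 ± 0.19 (log2, SE, adjusted p = 7.6e-06, edgeR) in males and 0.49 ± 0.17 (adjusted p = 0.0448) in females. The female call was lost with the replicate block (adjusted p = 0.0601, edgeR). It ended as well in 12 of 18 leave-one-out fits. The effects differed by 1.18 ± 0.25 (adjusted p = 0.0182, edgeR interaction), and by 1.07 (adjusted p = 0.0616) without the 2 libraries that stood apart.

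**Figure D2:**
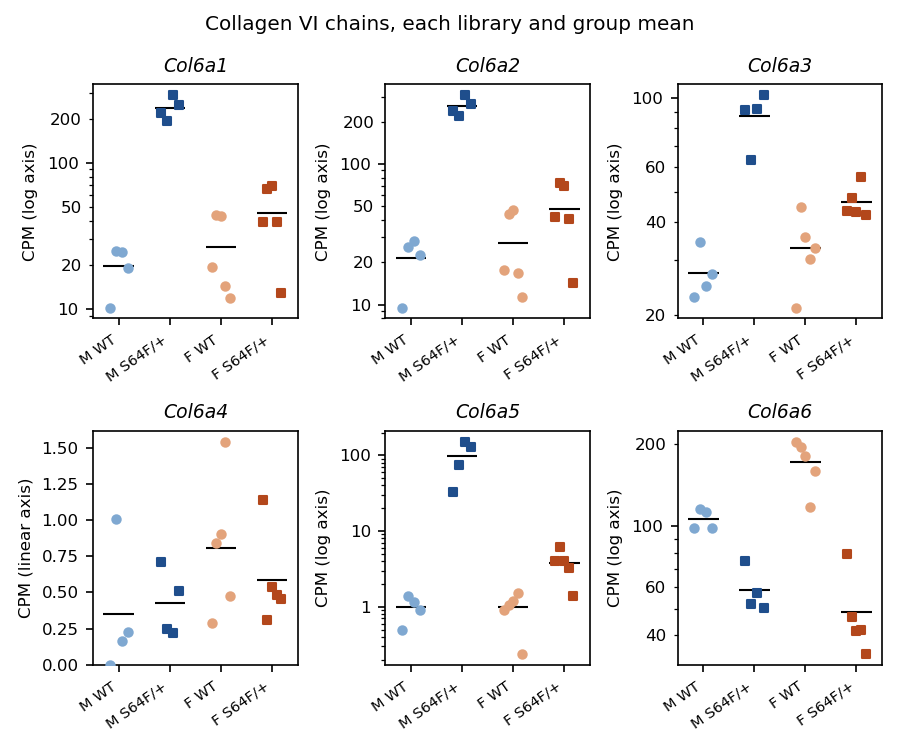
CPM of the 6 collagen VI chains in each of the 18 libraries (circles WT, squares S64F/+, blue males, orange females; horizontal bars are group means; log axes except for Col6a4, which had no count in a library and is drawn on a linear axis). Male S64F/+ libraries lie above all others for Col6a1, Col6a2, Col6a3 and Col6a5, and both S64F/+ groups lie below their WT groups for Col6a6.

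Fibrillar chains rose in males, and Col27a1 alone of them rose in females. In males 8 of the 10 tested rose and 0 fell, with a median change of 2.39 on the log2 scale (7 of 9 and 2.33 leaving out Col24a1). Those not called were Col11a1 (1.28 ± 0.58) and Col11a2 (-0.35 ± 0.17), which encode chains of collagen XI. Col11a1 was called in males with the replicate block (1.41, adjusted p = 0.0297, edgeR) and without male WT replicate 2 (adjusted p = 0.043). In females Col27a1 rose, Col11a2 fell, and the median change was 0.43 (with the replicate block, 1 rose and 0 fell). The interaction term passed for 1 of the 10, and for 0 of 9 leaving out Col24a1 (edgeR). It passed for 4 by DESeq2 and 5 with the replicate block, so the calls of a difference between the sexes in this class depended on the fit. The male minus female difference was positive for all 10, with 7 at an unadjusted p under 0.05 (edgeR). Its median was 1.90 on the log2 scale, or 1.88 leaving out Col24a1, beside 1.67 for collagen IV. Fewer calls than in collagen IV thus do not mean a smaller difference.

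Col1a1 and Col1a2 encode the chains of collagen I, the main fibril collagen of connective tissue. Col1a1 stood at 23.1, 79.9, 83.3 and 72.6 CPM in male WT and at 531, 325, 438 and 461 CPM in male S64F/+. Col1a2 stood at 26.4, 83.5, 82.1 and 86.0 CPM in male WT and at 543, 298, 423 and 419 CPM in male S64F/+. WT replicate 1 lay well below the other WT libraries for both, and the genotypes lay apart.

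In females Col1a1 stood at 58.0, 159, 144, 44.6 and 27.7 CPM in WT and at 97.0, 190, 193, 106 and 26.3 CPM in S64F/+. Col1a2 stood at 59.5, 155, 150, 55.9 and 40.5 CPM in female WT and at 107, 177, 171, 112 and 37.4 CPM in female S64F/+. Replicates 2 and 3 were the highest in both female genotypes and replicate 5 the lowest, and the genotypes overlapped.

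The change of Col1a1 was 2.76 ± 0.65 (log2, SE, adjusted p = 0.00532, edgeR) in males and 0.50 ± 0.55 (adjusted p = 0.573) in females, a difference of 2.26 ± 0.83 (adjusted p = 0.116). For Col1a2 the values were 2.60 ± 0.54 (adjusted p = 0.00234, edgeR) and 0.39 ± 0.46 (adjusted p = 0.601), a difference of 2.20 ± 0.70 (adjusted p = 0.0766). The interaction of neither gene passed in edgeR, while DESeq2 gave adjusted p-values of 0.0442 for Col1a1 and 0.0102 for Col1a2. EdgeR with the replicate block gave 0.0434 and 0.047.

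Col3a1 encodes the single chain of collagen III, which forms fine fibrils with collagen I. It stood at 53.9, 154, 166 and 159 CPM in male WT and at 805, 549, 809 and 773 CPM in male S64F/+. In females it stood at 109.1, 283, 236, 80.8 and 57.0 CPM in WT and at 186, 315, 371, 182 and 57.6 CPM in S64F/+. The male groups lay apart and the female groups overlapped over most of their range. The change was 2.46 ± 0.58 (log2, SE, adjusted p = 0.00565, edgeR) in males and 0.54 ± 0.50 (adjusted p = 0.488) in females. Their difference of 1.92 ± 0.75 was not called (adjusted p = 0.136, edgeR interaction, 0.0345 with the replicate block, and 0.0426 by DESeq2).

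Collagen V, which starts fibrils and limits their width, has its chains in Col5a1, Col5a2 and Col5a3. Col5a1 stood at 3.65, 13.0, 16.1 and 13.3 CPM in male WT and at 107, 51.7, 74.9 and 68.6 CPM in male S64F/+. In females it stood at 7.99, 25.1, 26.1, 7.58 and 6.45 CPM in WT and at 20.7, 31.7, 34.0, 16.4 and 3.76 CPM in S64F/+. The pattern over libraries was that of Col1a1, with apart male groups and overlapping female groups. Its change was 2.70 ± 0.66 (log2, SE, adjusted p = 0.00669, edgeR) in males and 0.54 ± 0.56 (adjusted p = 0.545) in females, a difference of 2.16 ± 0.84 (adjusted p = 0.136). Col5a2 rose by 2.23 ± 0.39 and Col5a3 by 2.33 ± 0.55 in males, and neither passed in females (0.42 ± 0.34 and 0.45 ± 0.47).

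Col27a1, a fibrillar chain best known from cartilage, was the member of this class that rose in both sexes. It stood at 43.6, 39.0, 32.1 and 43.8 CPM in male WT and at 89.1, 100, 175 and 131 CPM in male S64F/+. In female islets it stood at 48.4, 48.1, 32.7, 40.1 and 43.97 CPM in WT and at 72.4, 79.3, 68.1, 114 and 118 CPM in S64F/+. The genotypes lay apart in both sexes, as they did upward for 17.8% of all genes in males and 5.28% in females. Female S64F/+ replicate 5, low for Col1a1 and Col3a1, was the highest female library for Col27a1. The change was 1.64 ± 0.22 (log2, SE, adjusted p = 3.64e-05, edgeR) in males and 1.08 ± 0.19 (adjusted p = 0.000697) in females, and the difference of 0.56 ± 0.28 did not pass (adjusted p = 0.231).

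Col24a1, a rare fibrillar chain, held 7 counts in all of male WT, 140 in male S64F/+, 40 in female WT and 17 in female S64F/+. These are given as a description, since the gene reached the minimum count in all 4 male S64F/+ libraries and in 1 of the others. Per library it stood at 0 to 0.133 CPM in male WT, 0.247, 0.399, 0.892 and 1.47 CPM in male S64F/+, and 0 to 0.291 CPM in the female libraries. It was thus close to the limit of detection outside male S64F/+.

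Col11a2 stood at 37.6, 28.2, 32.9, 22.4 and 22.7 CPM in female WT and at 18.9, 18.5, 22.4, 18.03 and 25.5 CPM in female S64F/+. The groups overlapped, and the change was -0.48 ± 0.15 (log2, SE, adjusted p = 0.0259, edgeR, and 0.0539 with the replicate block).

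In collagen IV the genotype effect was called different between the sexes for every chain in the edgeR fit without a block. All 6 chains rose in male S64F/+ islets, with a median change of 1.47 on the log2 scale, and 0 of 6 was called in females by edgeR or DESeq2, where the median was -0.15 and 1 had an unadjusted p under 0.05. For all 6 the interaction passed, with differences from 1.03 to 2.38. The calls of Col4a3 and Col4a6 ended without the 2 libraries that stood apart, and that of Col4a3 with the replicate block, where 5 passed.

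Col4a1 and Col4a2, neighbours read in opposite directions, encode the chains found in nearly all basement membranes. Col4a1 stood at 268, 414, 409 and 337 CPM in male WT and at 606, 571, 657 and 589 CPM in male S64F/+. In females it stood at 380, 464, 438, 351 and 409 CPM in WT and at 333, 386, 353, 328 and 251.97 CPM in S64F/+. Male S64F/+ libraries were above every other library, and the female genotypes overlapped with S64F/+ toward the low side. The change was 0.76 ± 0.14 (log2, SE, adjusted p = 0.000434, edgeR) in males and -0.31 ± 0.12 (adjusted p = 0.0835) in females, a difference of 1.07 ± 0.18 (adjusted p = 0.00847).

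Col4a2 stood at 158, 261, 249 and 178 CPM in male WT and at 398, 381, 404 and 364 CPM in male S64F/+. In females it stood at 229, 296, 272, 193 and 245 CPM in WT and at 213, 242, 265, 220 and 170 CPM in S64F/+. Again the male S64F/+ libraries lay above all others and the female genotypes overlapped. The change was 0.87 ± 0.16 (log2, SE, adjusted p = 0.000539, edgeR) in males and -0.16 ± 0.14 (adjusted p = 0.481) in females, a difference of 1.03 ± 0.21 (adjusted p = 0.0162). The gene models of the pair overlap by 22 bases at their starts, and the strand setting of the counting is not given, so a few reads may be shared.

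Col4a3, Col4a4 and Col4a5 encode the chains of the specialised network of the kidney filter, and Col4a6 pairs with Col4a5 in other basement membranes. Col4a3 and Col4a4 start 71 bases apart on opposite strands, and Col4a5 and Col4a6 lie 1.31 kb apart, also on opposite strands. Per length all 4 were scarce, at 0.0403 to 0.309 FPKM in male WT beside 19.9 FPKM for Col4a1.

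Col4a3 stood at 2.43, 4.40, 4.32 and 3.95 CPM in male WT and at 12.6, 6.83, 6.49 and 6.18 CPM in male S64F/+. In females it was 3.57, 6.08, 5.70, 2.77 and 3.71 CPM in WT and 3.64, 3.22, 4.07, 3.29 and 2.49 CPM in S64F/+. S64F/+ replicate 1 was the high library of its group. The effects differed by 1.47 ± 0.37 (log2, SE, adjusted p = 0.0342, edgeR interaction), and by 1.22 (adjusted p = 0.0868) without the 2 libraries that stood apart. The replicate block gave 1.36 (adjusted p = 0.0625, edgeR), and the call ended in 8 of 18 leave-one-out fits.

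Col4a4 stood at 1.77, 2.79, 2.73 and 2.32 CPM in male WT and at 11.6, 7.88, 9.10 and 6.38 CPM in male S64F/+. Among females it was 2.86, 4.15, 4.06, 1.99 and 2.55 CPM in WT and 3.01, 3.57, 2.95, 2.98 and 1.67 CPM in S64F/+. Male S64F/+ again lay above every other library. The change was 1.85 ± 0.27 (log2, SE, adjusted p = 5.44e-05, edgeR) in males, and the effects differed by 2.00 ± 0.35 (adjusted p = 0.00872).

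Col4a5 stood at 3.76, 5.41, 3.92 and 5.62 CPM in male WT and at 25.3, 13.8, 19.9 and 19.02 CPM in male S64F/+. In females it was 4.68, 6.99, 8.04, 4.57 and 4.01 CPM in WT and 6.74, 6.61, 6.81, 7.02 and 4.80 CPM in S64F/+. The X-linked gene thus rose 4.15-fold in males and stayed within the WT range in females. The change was 2.06 ± 0.23 (log2, SE, adjusted p = 4.12e-06, edgeR) in males and 0.18 ± 0.20 (adjusted p = 0.571) in females, a difference of 1.87 ± 0.30 (adjusted p = 0.00534).

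Col4a6 stood at 0.111 to 0.865 CPM in male WT and 1.88 to 3.60 CPM in male S64F/+. Its female ranges were 0.270 to 1.03 CPM in WT and 0.403 to 1.02 CPM in S64F/+. The male groups lay apart and the female ranges nearly coincided. The change was 2.72 ± 0.46 (log2, SE, adjusted p = 0.000255, edgeR) in males, with a difference of 2.38 ± 0.60 (adjusted p = 0.0362). Without the 2 libraries that stood apart the difference was 1.96 (adjusted p = 0.0774), and the call ended in 8 of 18 leave-one-out fits.

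**Figure D3:**
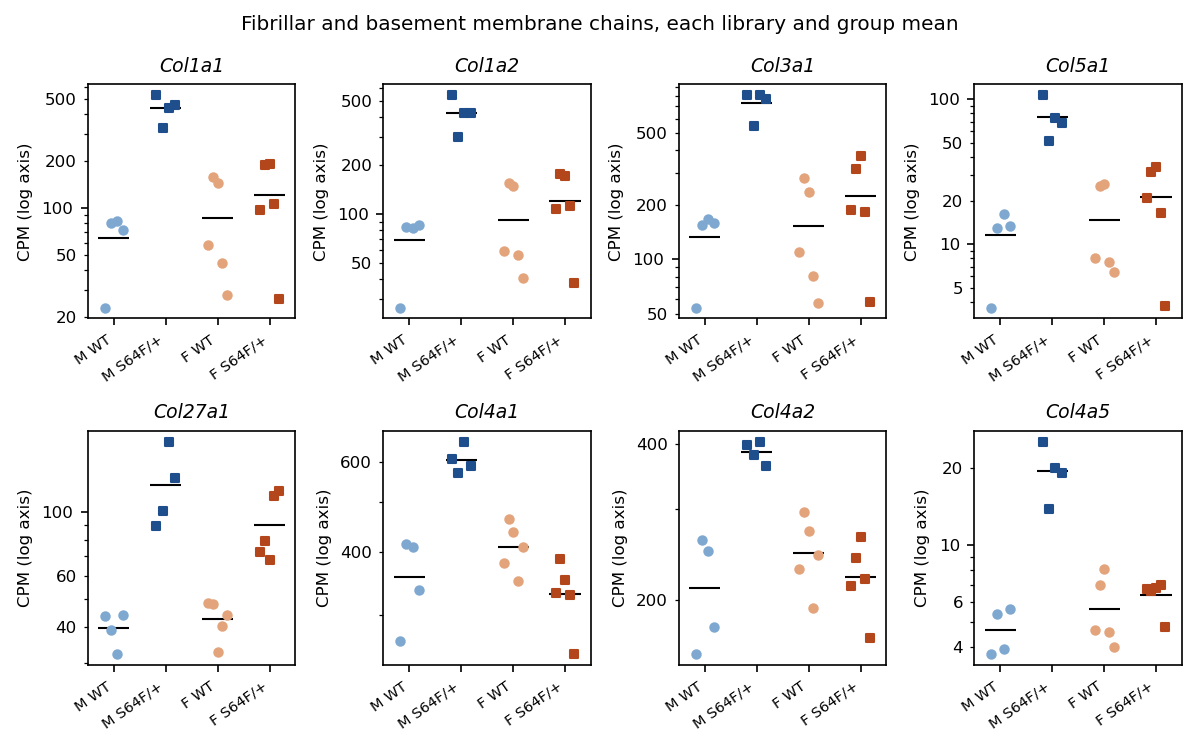
CPM (log axes) of 5 fibrillar chains and 3 collagen IV chains in each library (circles WT, squares S64F/+, blue males, orange females; horizontal bars are group means). Male S64F/+ lies above male WT in every panel, and the female genotypes lie apart for Col27a1 alone among these 8.

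The multiplexins Col15a1 and Col18a1 encode collagens with glycosaminoglycan chains that lie in and under basement membranes. Both rose in males, and neither was called in females by edgeR or DESeq2. Col15a1 stood at 43.95, 80.1, 82.6 and 55.7 CPM in male WT and at 164, 171, 244 and 209 CPM in male S64F/+. Among females it was 76.2, 95.5, 104, 72.5 and 80.1 CPM in WT and 86.8, 145, 103, 99.1 and 81.7 CPM in S64F/+. Its effects were 1.58 ± 0.21 (log2, SE, adjusted p = 3.45e-05, edgeR) in males and 0.27 ± 0.18 (adjusted p = 0.326) in females, a difference of 1.32 ± 0.28 (adjusted p = 0.0176). Col18a1, whose product is the source of endostatin, rose by 2.02 ± 0.32 in males (adjusted p = 0.000205). Its difference between the sexes was 1.45 ± 0.42 (adjusted p = 0.0569, edgeR interaction, 0.0218 with the replicate block, and 0.00533 by DESeq2). Its female value of 0.57 ± 0.28 had an adjusted p of 0.156, and of 0.0403 with the replicate block (edgeR).

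Fibril-associated chains sit on the surface of fibrils. In males 5 of the 6 tested rose, and in females 2 rose. Col12a1 and Col14a1, which decorate collagen I fibrils, rose by 1.66 ± 0.52 and 2.32 ± 0.53 (log2, SE) in males, and Col16a1 by 1.31 ± 0.37. The call of Col12a1 ended with no filter on low counts (adjusted p = 0.0596, edgeR) and without male WT replicate 1 or 4 or male S64F/+ replicate 1 (at most 0.0671). Col20a1 was not called (0.10 ± 0.19).

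Col9a2 and Col9a3, chains of the collagen IX of cartilage, rose in both sexes. Col9a2 stood at 6.91, 7.12, 6.62 and 4.56 CPM in male WT and at 12.03, 12.8, 13.7 and 12.3 CPM in male S64F/+. In females it was 9.06, 8.69, 10.2, 8.67 and 8.41 CPM in WT and 9.84, 18.2, 13.4, 15.5 and 15.5 CPM in S64F/+. The male genotypes lay apart and the female genotypes overlapped through S64F/+ replicate 1. The change was 1.01 ± 0.16 (log2, SE, adjusted p = 0.000136, edgeR) in males and 0.69 ± 0.14 (adjusted p = 0.00187) in females.

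Col9a3 stood at 1.22, 1.37, 0.798 and 0.646 CPM in male WT and at 2.95, 2.35, 1.64 and 2.59 CPM in male S64F/+. Among females it was 1.30, 1.46, 1.19, 1.30 and 0.708 CPM in WT and 1.25, 2.87, 2.24, 2.02 and 1.78 CPM in S64F/+. The female S64F/+ replicate 1 lay among the WT libraries. The change was 1.24 ± 0.30 (log2, SE, adjusted p = 0.00449, edgeR) in males and 0.75 ± 0.26 (adjusted p = 0.0474) in females, and the female call ended in 13 of 18 leave-one-out fits.

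Of the transmembrane chains, Col25a1, known from neurons, rose in both sexes and Col13a1 fell in males. Col25a1 stood at 1.16, 0.962, 0.931 and 0.266 CPM in male WT and at 2.88, 2.81, 2.45 and 3.74 CPM in male S64F/+. In females it was 1.61, 0.974, 1.07, 1.04 and 0.921 CPM in WT and 3.25, 1.01, 2.08, 3.00 and 1.85 CPM in S64F/+. Replicate 2 was the female S64F/+ library that overlapped WT. The change was 1.84 ± 0.37 (log2, SE, adjusted p = 0.00112, edgeR) in males and 0.99 ± 0.32 (adjusted p = 0.0318, and 0.0587 with the replicate block) in females. The fall of Col13a1 was -0.39 ± 0.13 (adjusted p = 0.0293, edgeR), and with plain library-size scaling it was -0.18 (adjusted p = 0.441). Col17a1 and Col23a1 passed no test.

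Of the short network-forming chains, Col8a1 and Col8a2, known from vessel walls and the cornea, rose by 1.55 ± 0.45 and 0.97 ± 0.33 (log2, SE) in males, and Col10a1, the chain of hypertrophic cartilage, passed no test. Leaving out both libraries that stood apart ended the call of Col8a2 (0.83, adjusted p = 0.107), and leaving out male WT replicate 1 ended that of Col8a1 (adjusted p = 0.0547). None of Col7a1, Col26a1 and Col28a1 was called in either sex by edgeR, where their male changes were 0.27 to 0.86 and 1 had an unadjusted p under 0.05 in each sex. Col28a1 was called in males by DESeq2 (adjusted p = 0.0342) and by edgeR with library-size scaling (0.0357), with the 2 male groups alone (0.00934) and with the replicate block (0.0301).

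Between the sexes, the WT groups gave 0 collagen chains higher and 0 lower in males (edgeR), against 1.73% and 0.637% of all genes. At an unadjusted p under 0.05 there were 5, and DESeq2 called 3 lower in males, Col6a6, Col9a2 and Col11a2. In S64F/+ islets, 20 of the 40 chains were higher in males than in females and 0 were lower, beside 8% and 8.12% of all genes. These were 7 fibrillar chains, all 6 of collagen IV, 4 of collagen VI, 2 multiplexins and Col16a1. The number was 14 to 23 on leaving out 1 library, 16 without female S64F/+ replicate 5, and 15 with no filter on low counts. These comparisons use the same libraries as the genotype comparisons and are not separate evidence.

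Levels of different genes were set side by side on the authors' FPKM, which divides by a length per gene and by the plain library total. With plain library-size scaling the median change of all genes in males was 0.19 (log2), so male FPKM sums are to be read against that shift. The 44 chains summed to 94.997 ± 26.9 FPKM in male WT and 392 ± 47.7 in male S64F/+ (SD, n = 4). The sums were 123 ± 43.6 in female WT and 128 ± 41.2 in female S64F/+ (n = 5). Male S64F/+ libraries, from 327 to 429 FPKM, lay above every other library, the highest of which reached 177.

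The make-up of that sum differed between the male groups. Collagen IV made up 48.4 ± 4.26% of collagen FPKM in male WT and 24.4 ± 2.52% in male S64F/+, while it rose in level. The fibrillar share was 28.0 ± 6.17% and 46.1 ± 4.00%, and the collagen VI share 11.8 ± 0.536% and 21.7 ± 2.53%. In females the collagen IV share was 47.0 ± 8.14% and 38.0 ± 7.47%, the fibrillar share 27.2 ± 9.04% and 36.2 ± 8.55%, and the collagen VI share 13.8 ± 1.03% and 12.2 ± 1.90%. The male genotypes did not overlap in any of the 3 shares, and the female genotypes overlapped in all 3.

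In male WT the chains with the highest FPKM were Col4a2 (24.9 ± 7.33), Col4a1 (19.9 ± 4.72), Col3a1 (10.02 ± 4.08) and Col1a1 (8.67 ± 3.92), and the libraries of neighbours in this order overlapped except between Col4a1 and Col3a1. In male S64F/+ they were Col1a1 (68.2 ± 13.9), Col3a1 (64.2 ± 10.9), Col4a2 (52.6 ± 3.48) and Col6a1 (52.1 ± 8.66). Col6a5 stood at place 32 of 44 in male WT and at place 10 in male S64F/+.

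The order depends on the lengths. The authors' length was 17131 bases for Col4a1 and 8135 for Col4a2, while the longest coding transcripts in GENCODE M21 have 6615 and 6450. Per kilobase of those transcripts, a measure added after seeing the data, Col4a1 stood at 53.9 ± 10.4 CPM and Col4a2 at 32.7 ± 7.95 CPM in male WT, the reverse of the FPKM order. The change of a single gene between groups is not touched by the length. Changes of the summed FPKM and of the class shares do depend on it, since the lengths weight the genes.

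Chains that assemble in a trimer were compared within each library, where depth is shared. A difference in cell make-up between groups can still move such a ratio, where the chains come from different cells. The FPKM ratio of Col6a3 to Col6a1 had a geometric mean of 0.193 in male WT (0.134 to 0.298) and 0.0489 in male S64F/+ (0.0424 to 0.0561). The ranges lay apart, with an exact two-sided permutation p of 0.0286, the smallest that 4 against 4 allows, and a value of 0.114 after adjustment over the 8 ratios tested. In females the ratio was 0.186 in WT and 0.157 in S64F/+ (exact permutation p = 0.675).

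The ratio of Col4a1 to Col4a2 was 0.789 in female WT and 0.708 in female S64F/+ (exact permutation p = 0.0159, adjusted 0.114). The other ratios tested, Col1a1 to Col1a2 and Col6a1 to Col6a2, had exact permutation p-values from 0.0571 to 0.743. For Col6a1 to Col6a2 the geometric means were 2.52 and 2.47 in the male groups, although both genes rose 11.9-fold. None of the 8 passed after adjustment. A male ratio could not have passed on its own, since the smallest exact permutation p at 4 against 4 is 0.0286. The adjusted values thus cannot show that a male ratio was unchanged. On the length of the longest coding transcript the levels of these ratios shift while their changes between groups do not. Col6a3 to Col6a1 was then 0.588 in male WT and 0.149 in male S64F/+, Col6a1 to Col6a2 1.06 and 1.04, and Col4a1 to Col4a2 1.62 in female WT and 1.45 in female S64F/+. As a description, the FPKM ratio of Col6a5 to Col6a6 went from 0.00953 in male WT to 1.57 in male S64F/+, and from 0.00543 to 0.0803 in females.

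**Figure D4:**
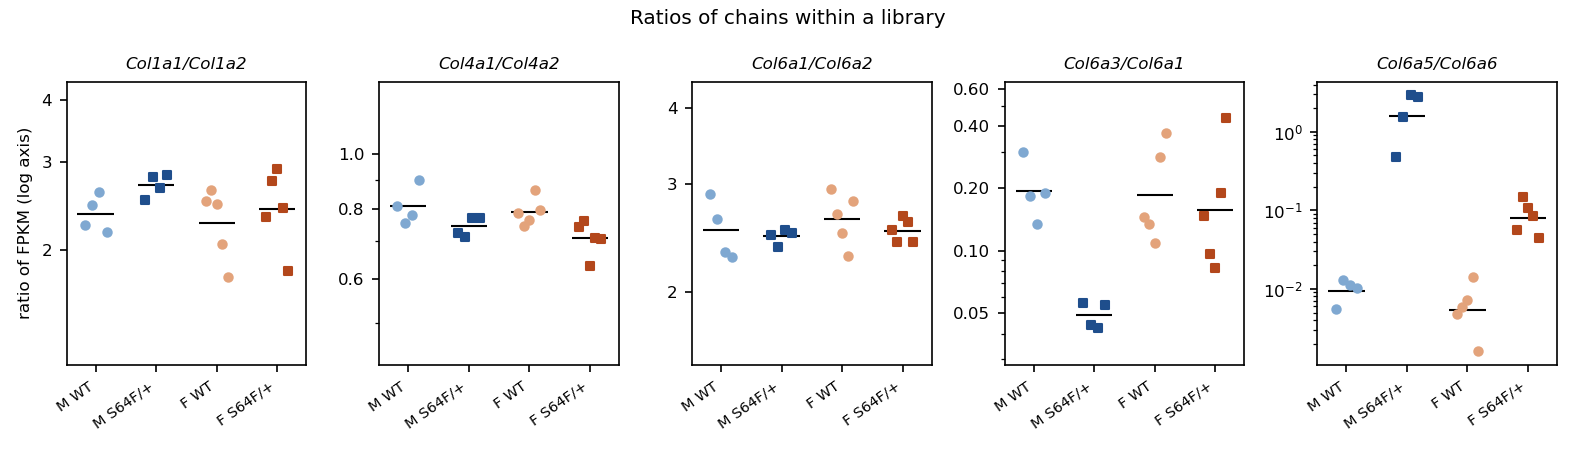
FPKM ratio of 5 pairs of chains in each library (log axes; circles WT, squares S64F/+, blue males, orange females; bars are geometric means). Col6a3 to Col6a1 is lower in all 4 male S64F/+ libraries than in every other library, while Col6a1 to Col6a2 stays between 2.28 and 2.95 in every library.

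Genes that make, trim and bind collagen were followed in 5 lists. Counts here and in the cell marker lists below stand beside 15.4% of all genes higher and 12.3% lower in males. In females the shares were 10.2% and 11%, and the female counts of the first list lay near them. Of 19 that fold and modify the chains, 9 rose and 2 fell in males and 3 rose and 2 fell in females (5 and 1 with the replicate block), with medians of 0.18 and 0.23 (log2). P3h2, a prolyl hydroxylase of collagen, rose by 2.59 ± 0.15 (SE) in males and 1.18 ± 0.13 in females. Serpinh1, the collagen-specific chaperone, rose by 1.33 ± 0.23 in males, and Fkbp10, a prolyl isomerase, by 1.60 ± 0.31. In females Serpinh1 changed by 0.52 ± 0.20 (adjusted p = 0.0763, and 0.0142 with the replicate block, edgeR), while Fkbp14, another isomerase, rose by 0.53 ± 0.10 and Plod3, a lysyl hydroxylase, by 0.31 ± 0.09.

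Of 12 tested genes for procollagen processing and cross-linking, 9 rose and 1 fell in males, with a median of 1.96, and 1 rose and 2 fell in females (3 and 2 with the replicate block), with a median of 0.40. The lysyl oxidase family members Loxl4 and Loxl3 rose by 3.84 ± 0.53 and 1.53 ± 0.17 in males. Tll1, a procollagen C-proteinase, rose by 3.65 ± 0.46 in males and 2.10 ± 0.39 in females. Its relative Bmp1 fell by 0.85 on the log2 scale in females (SE 0.16), as did Loxl2 by 0.49 (SE 0.11).

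Of 13 tested proteoglycans and glycoproteins of fibrils, 10 rose in males (median 2.17) and 0 were called in females (median 0.80), where 1 had an unadjusted p under 0.05, DESeq2 called 0 and the replicate block 1. Postn, a matricellular protein, rose by 3.86 ± 0.59, Thbs1 by 1.90 ± 0.35 and Sparc, a collagen-binding glycoprotein, by 1.48 ± 0.24. Of 10 tested collagen receptors, 4 rose and 2 fell in males and 0 rose and 2 fell in females. Cspg4, a proteoglycan of pericytes, the integrin chain Itga1 and the uptake receptor Mrc2 rose in males by 1.30 ± 0.18, 1.15 ± 0.22 and 2.21 ± 0.51. Itga2 fell by 1.71 on the log2 scale (SE 0.32) and Ddr1, a collagen-activated kinase, by 0.48 (SE 0.12) in females.

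Of 8 tested collagen-cleaving proteases and inhibitors, 7 rose in males (median 1.72) and 2 in females (3 with the replicate block, median 0.64). The inhibitors Timp3 and Timp2 rose by 1.76 ± 0.17 and 1.61 ± 0.27 in males, and the membrane-bound protease Mmp14 by 1.68 ± 0.29. In females Timp3 rose by 0.62 ± 0.15 and Timp1 by 1.72 ± 0.46. Proteases and their inhibitors thus rose side by side in males. The interaction term called a larger male effect for 1, 2, 2, 2 and 1 genes of the 5 lists in the order above, and a smaller one for 0 (edgeR, adjusted p under 0.05). DESeq2 called 3, 4, 5, 3 and 4. Most members of these lists thus had no called difference between the sexes.

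Markers of the cells that make collagen moved with these results. Of 14 fibroblast and stellate cell markers without collagens, 13 rose in males and 0 were called in females by edgeR or DESeq2 (1 at an unadjusted p under 0.05), with medians of 2.07 and 0.45. Dcn and Lum are also in the proteoglycan list, Cspg4 in the receptor list and Ngfr in the Schwann cell list. The 14 markers summed to 134 to 244 CPM in male WT, 460 to 589 in male S64F/+, 168 to 290 in female WT and 156 to 380 in female S64F/+. Every marker reached 1 CPM in a library. Rgs5 and Acta2 held much of this sum. Without these 2 genes it was 38.8 to 80.8, 225 to 315, 51.5 to 122 and 45.0 to 184 CPM in the same order. Of 12 endothelial markers, 10 rose in males and 0 were called in females by edgeR or DESeq2 (4 at an unadjusted p under 0.05, 1 with the replicate block), with sums of 500 to 692, 940 to 1102, 585 to 801 and 614 to 869 CPM in the same order. Of the 14 fibroblast and stellate markers, 12 had a positive change in females. By the interaction term, 3 of these 14 and 4 of the 12 endothelial markers had a larger effect in males, and 0 a smaller one (edgeR, adjusted p under 0.05). DESeq2 called 5 and 7. The part of either cell type in the collagen results was not tested.

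In males, 5 of 10 Schwann cell markers rose (7 by DESeq2 and 9 with the replicate block), as did 6 of 8 ductal and 5 of 8 macrophage markers, and 1 macrophage marker fell. Their medians were 1.60, 1.92 and 1.23 on the log2 scale, beside 0.79 for the endothelial markers. In females the numbers that rose were 1, 2 and 4, with medians of 0.71, 0.51 and 0.85. Mesothelial markers gave 2 higher and 1 lower in each sex. Of 8 acinar markers 0 were called in either sex by edgeR or DESeq2, 0 of them at an unadjusted p under 0.05, and their sum ranged from 2673 to 42033 CPM over the libraries. Of 8 endocrine markers, 5 fell in males, and 3 rose and 2 fell in females (2 and 2 with the replicate block).

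Summed by class, the collagens followed different ranges. Fibrillar chains summed to 186 to 424 CPM in male WT, 1425 to 2202 in male S64F/+, 215 to 737 in female WT and 279 to 913 in female S64F/+. Collagen IV summed to 434 to 688, 983 to 1100, 554 to 778 and 431 to 642 CPM in the same order. Collagen VI summed to 141 to 203, 600 to 899, 182 to 329 and 105 to 240 CPM. For all 3 classes male S64F/+ lay above every other library. The same held for the sums of the fibroblast and stellate, the endothelial and the ductal markers. Ductal markers summed to 542 to 688 CPM in male S64F/+ and to at most 430 in the other libraries.

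**Figure D5:**
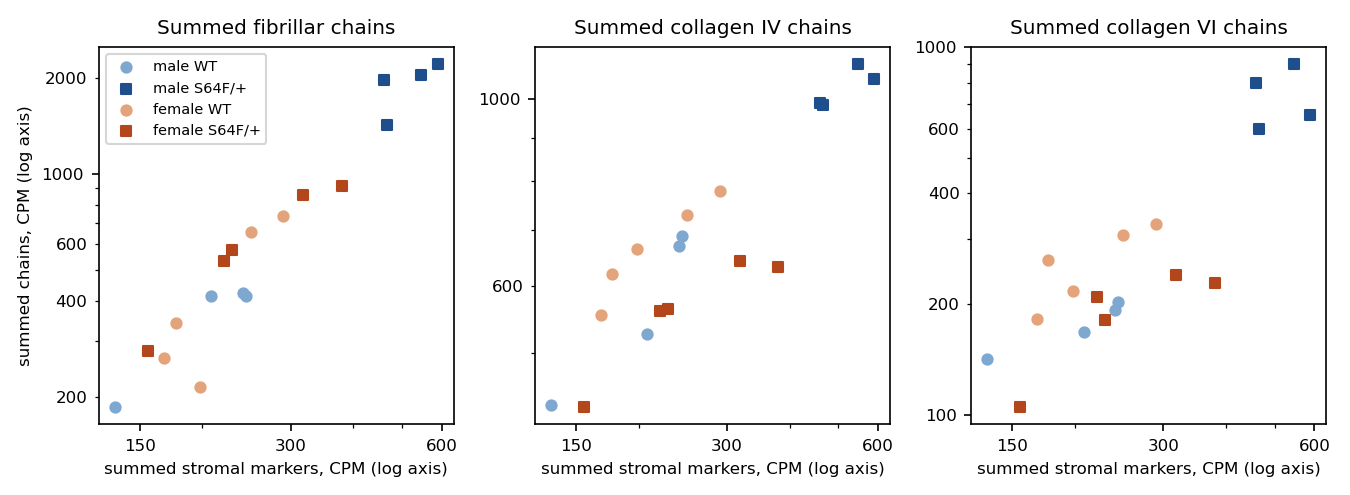
Summed CPM of fibrillar, collagen IV and collagen VI chains (vertical, log axes) against the summed CPM of 14 fibroblast and stellate cell markers without collagens (horizontal, log axis) in each of the 18 libraries. The 4 male S64F/+ libraries stand at the upper right of each panel, and the female genotypes overlap in each.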

How the data were processed

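The authors deposited raw counts per gene for 18 libraries of bulk islet RNA; per the labels' protocols, RNA integrity numbers were above 8.0 and paired-end reads came from an Illumina NovaSeq6000. Per the submitters' processing notes, the build was GRCm38 and the tools were FastQC, MultiQC, STAR, DESeq2 and featureCounts, without role or version. The sources used here do not state the annotation or the strand setting. The authors' deposited FPKM values equalled the count over the library total and 1 length per gene for all 33562 genes with a count (within 0.001 base). They were therefore not tested gene by gene. They serve for levels between genes, for sums and shares of the chains, and for the chain ratios, which were tested. The tables list 53900 features, of which 99 spike-in rows at 0 were left out. No column of other samples was present.

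Computed here: genes were kept by filterByExpr (minimum count 10, total 15), libraries scaled by TMM, and edgeR 4.0.16 (R 4.3.3, limma 3.58.1) fitted 1 robust quasi-likelihood model with 1 coefficient per group to all 18 libraries. P-values were two-sided, adjusted by Benjamini-Hochberg within each contrast, threshold 0.05. Standard errors came from dividing the absolute log2 fold change by the square root of F. Run on simulated data, the fit recovered a smaller share of 2-fold than of 4-fold changes, below the share first asked for at 2-fold, a target then dropped. Chain ratios were tested by exact permutation of libraries. Replicates differed by more than sampling noise (lowest chi-square per degree of freedom 19.9). Same-numbered female libraries deviated together (correlations 0.11 to 0.418 over 5 pairs), while male pairs did not (-0.249 to 0.189). Differently numbered female libraries ran from -0.389 to 0.494, so some correlated as strongly. The numbers thus pair the female libraries only as an uncertain hint from the data. Blocked values stand beside the female counts and chains they change. Alternatives were library-size scaling, RLE factors, no filter, only the 2 groups compared, DESeq2 1.42.0, the block and leave-one-out fits.

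Gene coordinates came from GENCODE M21 and promoter sequences from RefSeq on GRCm38.p6. Every member was named or counted; from each partner list up to 3 called genes per genotype comparison with the smallest p were named, plus Serpinh1 and Mafa. Members and lists were chosen with earlier results of these data known.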

Additional observations from a re-analysis of the deposited data

Results flagged for a closer look

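The genotype effect differed between males and females for 12 collagen chains by the interaction term. The male minus female difference in log2 fold change was 4.61 for Col6a5, 2.81 for Col6a1, 2.76 for Col6a2 and 1.18 for Col6a3. In collagen IV it was 1.07 for Col4a1, 1.03 for Col4a2, 1.47 for Col4a3, 2.00 for Col4a4, 1.87 for Col4a5 and 2.38 for Col4a6, and it was 1.32 for Col15a1. The 4.00 of Col24a1 is no support for a difference, since that gene reached the minimum count through male S64F/+, where it is high.

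Single libraries stood far from the rest of their group in 16 of 228 sets of a gene and a group checked, where chance gives about 1 in 20. In male WT replicate 1, Col1a2 was low at 26.4 CPM and Col3a1 at 53.9 CPM. Male WT replicate 4 was low for Timp3 at 75.1 CPM. Male S64F/+ replicate 1 was high for Col18a1 at 49.0 CPM and Col4a3 at 12.6 CPM. Male S64F/+ replicate 2 was low for Col3a1 at 549 CPM, Fkbp10 at 6.45 CPM and Serpinh1 at 86.0 CPM. Female WT replicate 1 was high for Col25a1 at 1.61 CPM, and female WT replicate 3 for Loxl4 at 0.615 CPM. Female S64F/+ replicate 1 was high for Col6a6 at 79.3 CPM and Col6a4 at 1.14 CPM and low for Col13a1 at 14.2 CPM. Female S64F/+ replicate 2 was high for Loxl4 at 1.01 CPM and Timp3 at 198 CPM, and female S64F/+ replicate 5 was low for Col4a5 at 4.80 CPM.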

How the results depend on the processing

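Counts of called chains were recomputed under each alternative, 1 choice at a time. With library-size scaling 0 chains were lower in males and 3 higher in females. With the replicate block 1 was lower in males, 1 lower in females and 1 lower in males than females among WT, and 17 passed the interaction. With only the 2 groups compared, 1 was lower in females and 1 lower in WT males than females, and the interaction cannot be formed. DESeq2 called 3 lower in WT males than females. Without male WT replicate 1 and female S64F/+ replicate 5, an alternative chosen after seeing the data, 1 was lower in males and 6 passed the interaction. RLE factors moved no count by over 1.5 times. The cause of these shifts was not tested.

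Leave-one-out fits gave 25 to 29 higher and 1 to 2 lower in males, 3 to 6 higher and 1 to 3 lower in females, 7 to 15 higher in the interaction, and 0 to 2 lower in WT males than females. Higher chains in male than female S64F/+ numbered 14 to 23. Of the gene changes recomputed, the male ones of Col6a4 (-0.22 to 1.59 on the log2 scale) and Col20a1 (-0.00365 to 0.24) changed sign on leaving out 1 library, and that of Col6a4 also without both libraries above (-0.17). The log2 ratio of Col6a1 to Col6a2 in males changed by -0.0794 to 0.0349 and that of Col6a3 to Col6a1 in females by -0.61 to 0.0030 when 1 library was left out. Interaction calls that DESeq2 added were Col14a1, Col18a1, Col1a1, Col1a2, Col3a1, Col5a2 and Col6a6, and Col24a1 had no adjusted p there. The block added Col18a1, Col1a1, Col1a2, Col3a1, Col5a2, Col5a3 and Col6a6 and dropped Col24a1 and Col4a3. It changed no female call of a collagen chain beyond those given above. Depth limited Col24a1, Col10a1, Col17a1 and the 4 untested chains, with 24 to 204 counts each over all libraries.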
